A study of Mus musculus with 24 samples.

Results

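The 37 genes described here drive the cell cycle and copy the genome, and they were followed across mouse embryonic stem cells in which CTCF was removed, restored or replaced by a mutant. They were taken by gene symbol from a fixed list of 37, and all 37 were found among the 55291 genes of the deposited tables. They fall into 5 D cyclins and D cyclin kinases, 5 genes of the control of entry into S phase (G1/S), 13 replication genes and 14 genes of mitosis. All 37 passed the filter on low values, a mean of at least 10 normalized counts over 22 libraries, as did 18713 genes in all.

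CTCF is a zinc finger protein that binds DNA and, with cohesin, forms the borders of chromatin loops. The cells were E14Tg2a, an embryonic stem cell line of the 129/Ola strain. Their own CTCF carried an auxin-inducible degron, a tag through which indole-3-acetic acid (IAA, an auxin) has the protein destroyed, and a Ctcf transgene could be switched on with doxycycline. Cells called ID had been given 500 µM IAA and 1 µg/ml doxycycline for 2 days, so that the transgene stood in for the cells' own CTCF. The transgenes of the ID groups were the substitutions R339Q, R342C, S354F, K365T, R377C, R377H, Q418R, R448Q and H455R, and the wild-type sequence (WT ID). WT IAA cells had received IAA alone and so lacked the rescue, and untreated WT cells had received neither compound. Every group, the untreated one included, grew in 15% serum with leukemia inhibitory factor, 3 µM CHIR99021 (a GSK3 inhibitor) and 1 µM PD0325901 (a MEK inhibitor), and had 2 libraries. Each substitution was carried by a line of its own, so a line and its substitution cannot be told apart, and the labels do not say whether the 2 libraries of a group came from separate cultures. The p-values therefore measure the spread between these libraries, which may be technical.

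D cyclins with CDK4 or CDK6 open the cycle by phosphorylating the RB family, which frees E2F factors. E2F factors and cyclin E with CDK2 then switch on the replication genes. The MCM2-7 helicase is loaded on DNA by CDC6 and CDT1, and CDC45 and GINS activate it. Cyclin A, cyclin B with CDK1, the Aurora and Polo kinases and the spindle checkpoint carry the cell through mitosis, and their genes are read mostly in G2. Embryonic stem cells have a short G1 phase, high cyclin E and low levels of D cyclins. In bulk RNA a different share of cells in a phase and a different amount of RNA per cell cannot be told apart.

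Recovered reads per library numbered between 27761749 and 77141117. Ctcf RNA cannot show the loss of the protein, and whether it includes reads of the transgene is not given in the sources used here. It stood between 141 and 284 TPM (transcripts scaled by gene length and library) in the treated libraries, highest in R448Q and H455R cells, against 126 and 125 TPM in untreated cells. Summed markers of embryonic stem cells stood between 4522 and 5759 TPM in every library, so the labelled cell type was carried by its markers, and summed fibroblast markers reached 9.89 TPM at most. Whole chromosomes stood apart in 5 lines: against WT ID the median gene was shifted by over 0.2 (log2) on chromosomes 1, 8 and 11 in K365T cells, 11 in R377H cells, 1 and 6 in Q418R cells, 1, 3 and 8 in R448Q cells, and 8 in H455R cells. Replicates of R342C differed most, with a chi-square of 42 per gene between its libraries, against 17.9 between those of WT ID. Protein-coding genes lie on the opposite strand of Ccnd1, Ccnd3, Cdk4, Ccne2, Cdk2, Mcm7, Cdc45, Ccna2 and Cdc20. The libraries kept strand, but whether the counting used it is not given in the sources used here, so reads of such partners could have been shared.

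All 37 genes differed somewhere among the 11 treated groups (limma's moderated F test on log2(normalized count + 1), adjusted p under 0.05), as did 78.1% of all genes tested, so a difference as such sets them apart little. Against WT ID, 130 of the 370 pairs of a gene and a group passed the same threshold, 43 higher and 87 lower. H455R cells had 2 genes higher and 25 lower, where 12.6% and 10.5% of all genes tested were higher and lower, 23.1% in all. R342C cells had 1 higher and 20 lower (all genes 10% and 13.3%, together 23.3%), and R339Q cells 1 and 12 (11.8% and 9.7%, together 21.5%). R448Q cells had 13 higher and 8 lower (22.8% and 23.1%, together 45.8%), and K365T cells 9 and 6 (17.7% and 14.2%, together 32%). R377H cells had 9 higher and 2 lower (14.4% and 10.7%, together 25.1%), and Q418R cells 3 and 5 (11.2% and 13.8%, together 25%). WT IAA cells had 2 higher and 6 lower (9.96% and 10.7%, together 20.7%), S354F cells 1 and 2 (5.49% and 4.31%, together 9.8%), and R377C cells 2 and 1 (4.67% and 3.43%, together 8.09%). In Q418R, S354F, R377C and WT IAA cells the shares were near those of all genes tested. In R342C cells fewer genes passed on TPM, 1 higher and 11 lower, and after quantile normalization, 1 and 12. H455R cells had 2 higher and 23 lower on TPM and 2 and 25 after quantile normalization. On TPM it was 2 higher and 3 lower in WT IAA, 1 and 0 in S354F, 2 and 0 in R377C and 3 and 8 in Q418R cells. After quantile normalization it was 10 and 13 in R448Q, 7 and 6 in R377H and 2 and 2 in S354F cells. Centred on the chromosome it was 8 and 2 in K365T and 10 and 9 in R448Q cells. Centred on the 100 nearest genes it was 3 and 4 in WT IAA, 2 and 7 in R339Q, 8 and 2 in K365T, 6 and 3 in R377H and 3 and 2 in Q418R cells.

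**Figure D1:**
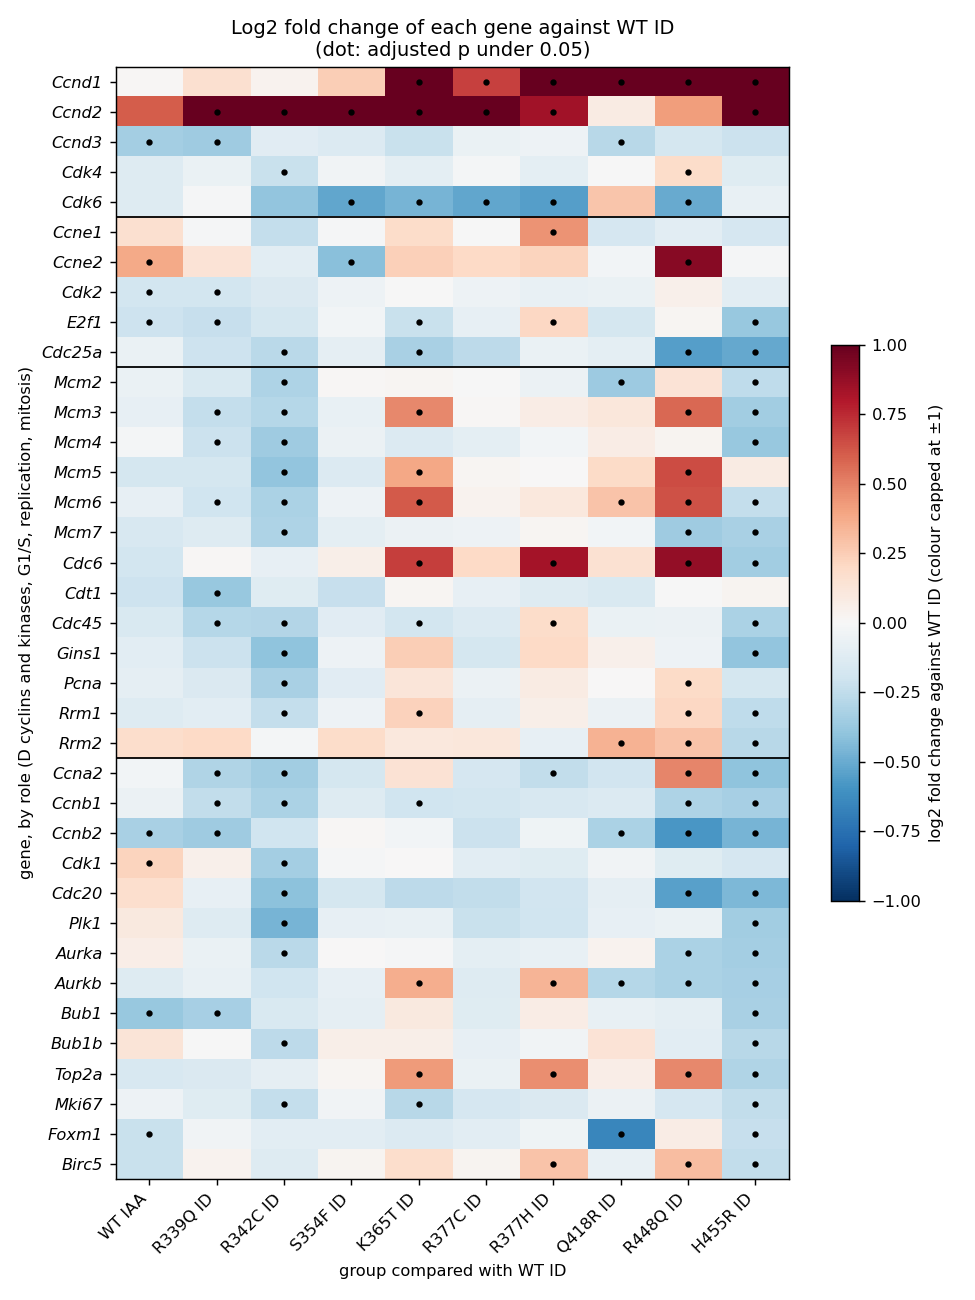
Log2 fold change against WT ID of each of the 37 genes (rows, in 4 role groups) in 10 groups of cells (columns), with a dot where the adjusted p was under 0.05. Ccnd1 and Ccnd2 form the strongest red rows, and the R342C and H455R columns hold 20 and 25 genes that fell.

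Ccnd1 and Ccnd2 had the largest changes of the 37 genes, in sets of lines that overlapped in part. Ccnd1 encodes cyclin D1, a partner of CDK4 and CDK6, and lies on chromosome 7 (bases 144929931 to 144939925, minus strand, mm10). Its normalized counts were 2524 and 2566 in R448Q cells, 2170.3 and 2698 in K365T cells, 1704 and 1945 in R377H cells and 1760.0 and 1772 in Q418R cells. They were 1759 and 1650.5 in H455R cells and 1255 and 1233 in R377C cells, against 756 and 793 in WT ID cells. All 12 libraries of these 6 lines lay above both WT ID libraries. Counts were 743 and 816 in WT IAA, 838 and 898 in R339Q, 815 and 774 in R342C and 881 and 963 in S354F cells, close to those of WT ID.

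Ccnd1 rose by 1.72 on the log2 scale (SE 0.095, adjusted p = 1.21e-10) in R448Q cells and by 1.64 on the log2 scale (SE 0.095, adjusted p = 1.92e-09) in K365T cells. It rose by 1.23 (SE 0.095, adjusted p = 2.28e-08) in R377H, 1.19 (SE 0.095, adjusted p = 4.3e-08) in Q418R, 1.14 (SE 0.095, adjusted p = 1.29e-07) in H455R and 0.68 (SE 0.095, adjusted p = 0.000124) in R377C cells. All 6 calls stayed when any library of the pair of groups was left out. The changes were 0.25 in S354F, 0.16 in R339Q, 0.037 in R342C and 0.0088 in WT IAA cells, and none of these 4 passed. On the level scale, R448Q and K365T cells came first with 36.1 and 36.8 TPM on average, whose libraries overlapped. H455R, R377H and Q418R cells followed at 27.7, 27.3 and 26.4 TPM, and the R377H libraries overlapped those of the other two, then R377C cells, with libraries at 19.6 and 20.5 TPM, and the other treated groups at 12.3 to 14.9 TPM.

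Ccnd2, which encodes cyclin D2, had the lowest TPM of the 37 genes and lies on chromosome 6 (bases 127125162 to 127152193, minus strand, mm10). Its normalized counts were 262 and 223 in R342C cells, 176 and 306 in K365T cells, 228 and 196 in H455R cells and 200.2 and 203 in R377C cells. They were 208 and 176 in S354F, 171 and 199 in R339Q and 117 and 169.5 in R377H cells, against 80.5 and 76.2 in WT ID cells. No library of these 7 lines overlapped WT ID. WT IAA cells had 122 and 117, R448Q cells 107 and 103 and Q418R cells 85.4 and 80.9.

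Ccnd2 rose by 1.61 on the log2 scale (SE 0.22, adjusted p = 5.87e-05) in R342C cells. It rose by 1.56 (SE 0.22, adjusted p = 2.67e-05) in K365T, 1.42 (SE 0.22, adjusted p = 0.000101) in H455R, 1.35 (SE 0.22, adjusted p = 0.000605) in R377C, 1.28 (SE 0.22, adjusted p = 0.000808) in S354F, 1.23 (SE 0.22, adjusted p = 0.000499) in R339Q and 0.84 (SE 0.22, adjusted p = 0.00804) in R377H cells. The R377H call was lost without either of 2 libraries, with adjusted p up to 0.152, and the other 6 stayed in every leave-one-out fit. It did not pass in WT IAA (0.61), R448Q (0.42) or Q418R cells (0.085), and in Q418R cells the median gene of chromosome 6 was shifted by -0.462. In S354F, R339Q and R342C cells Ccnd2 passed and Ccnd1 did not, and in Q418R and R448Q cells Ccnd1 passed and Ccnd2 did not. H455R against R448Q, a direct contrast added after the data were seen, gave 1.00 (SE 0.22, adjusted p = 0.000951) for Ccnd2 and -0.58 (SE 0.095, adjusted p = 5.2e-05) for Ccnd1.

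**Figure D2:**
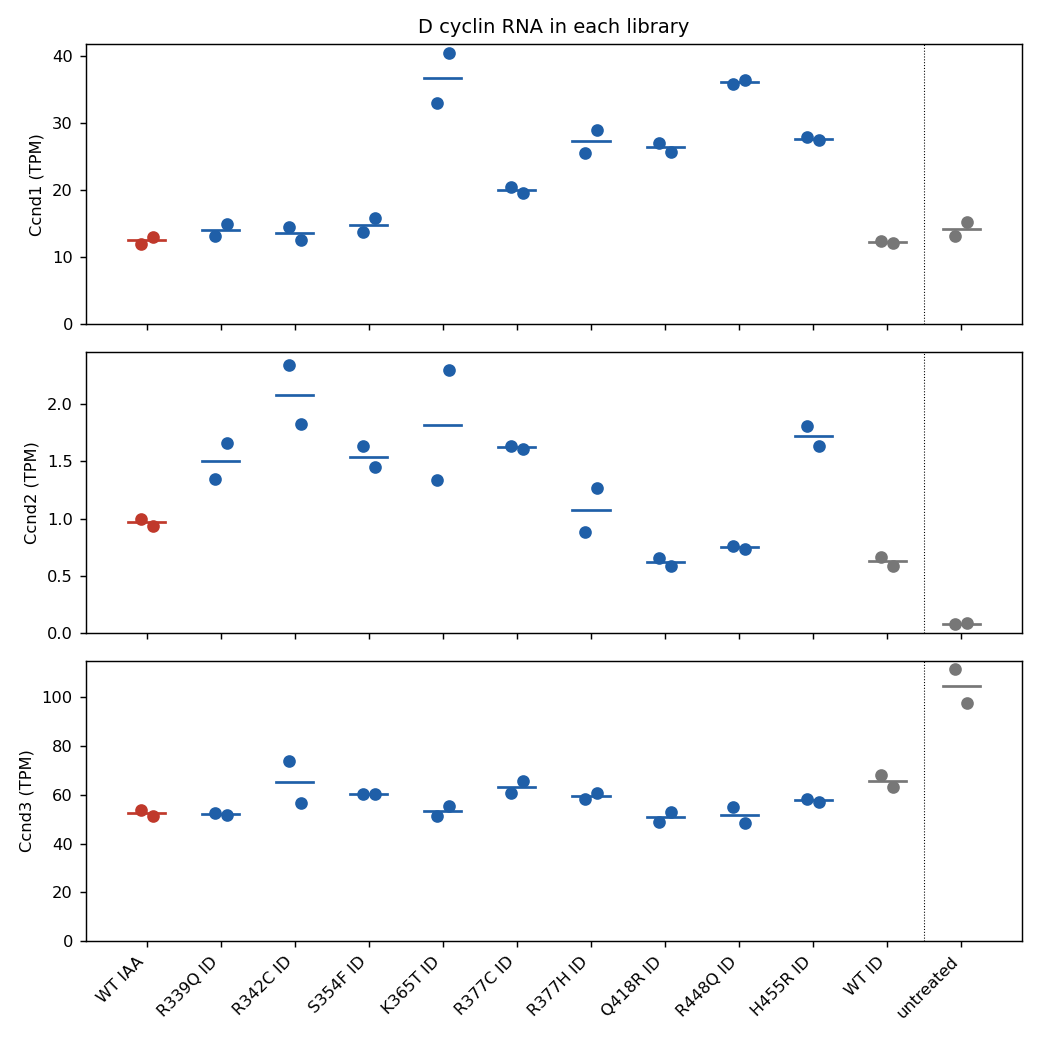
RNA level (TPM) of the 3 D cyclins in each library (points) with the group mean (bar), for WT IAA (red), the 9 mutant lines (blue), and WT ID and untreated cells (grey). The dotted line sets off the untreated libraries, which come from a separately scaled table, and Ccnd2 is lowest there, at 0.075 and 0.086 TPM.

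Ccnd3, the most abundant D cyclin of these cells, lies on chromosome 17 (bases 47505051 to 47599691, plus strand, mm10). Its normalized counts were 6169 and 5966 in WT IAA, 6250.4 and 5753 in R339Q and 5901 and 6792 in Q418R cells, against 7681 and 7658 in WT ID cells. It was the only D cyclin whose called changes were all decreases, with changes of -0.35 (SE 0.09, adjusted p = 0.00807) in R339Q, -0.34 (SE 0.09, adjusted p = 0.0121) in WT IAA and -0.28 (SE 0.09, adjusted p = 0.0306) in Q418R cells, and each call was lost without at least 1 library. In the other 7 lines it had 6831 and 6399.9 normalized counts in H455R, 7247 and 6352 in R448Q, 6951 and 7711 in R377C, 6305 and 6881 in K365T, 7207 and 7602 in R377H, 7173 and 6799.7 in S354F and 7730.4 and 6473 in R342C cells, with no call.

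Cdk6, the rarer of the 2 D cyclin kinases here, fell in 5 lines, by 0.55 (SE 0.15, adjusted p = 0.00801) in R377H, 0.52 (SE 0.15, adjusted p = 0.0266) in S354F, 0.52 (SE 0.15, adjusted p = 0.0302) in R377C, 0.51 (SE 0.15, adjusted p = 0.00751) in R448Q and 0.47 (SE 0.15, adjusted p = 0.0187) in K365T cells. Each of the 5 calls was lost without some library. Cdk4 rose by 0.19 (SE 0.059, adjusted p = 0.0141) in R448Q cells and fell by 0.23 (SE 0.059, adjusted p = 0.0102) in R342C cells, and passed in no other group.

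Genes near Ccnd1 and Ccnd2 were mixed. Of 12 other genes tested within 500 kb of Ccnd1, none was called in R377C cells, and none rose in H455R cells, where Fgf3 fell. LTO1, which overlaps Ccnd1 on the opposite strand, passed in none of the 6 lines with more Ccnd1, with changes from -0.26 in K365T to -0.03 in H455R cells. In Q418R cells Ano1 and Bc1 rose and Fgf4 fell, in K365T cells Fgf15 rose and Cttn fell, and in R377H cells Ppfia1 rose and Cttn fell. In R448Q cells 4 of the 12 rose (Ppfia1, Fadd, Ano1 and Bc1) and Fgf3 fell, while the 100 genes nearest to Ccnd1 had a median shift of -0.403 there. Of 7 other genes tested within 500 kb of Ccnd2, Parp11 rose in R342C, K365T, R377C and R377H cells, Kcna6 in R339Q cells and Ndufa9 in K365T cells, none was called in S354F cells, and in H455R cells Rad51ap1 fell. Where Ccnd2 was not called, Parp11 rose in R448Q cells, Parp11 and Rad51ap1 fell in WT IAA cells, and in Q418R cells Parp11 rose while Tigar, Rad51ap1, D6Wsu163e and Ndufa9 fell.

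Of the 5 G1/S genes, 3 passed in WT IAA cells and 2 each in R339Q, K365T, R377H, R448Q and H455R cells. In R342C and S354F cells 1 each passed, and none did in R377C and Q418R cells. Of all genes tested, 20.7% passed in WT IAA, 21.5% in R339Q, 32% in K365T, 25.1% in R377H, 45.8% in R448Q and 23.1% in H455R cells. Counts out of 5 genes cannot be told from such shares. Ccne2 and Ccne1 encode the cyclins E, which activate CDK2 before S phase. Ccne2 had 1491 and 1459.7 normalized counts in R448Q cells, 994 and 1053 in WT IAA cells and 510.4 and 676 in S354F cells, against 800.2 and 773 in WT ID cells. It rose by 0.91 on the log2 scale (SE 0.12, adjusted p = 5.76e-06) in R448Q cells and by 0.38 (SE 0.12, adjusted p = 0.0357) in WT IAA cells, and fell by 0.42 (SE 0.12, adjusted p = 0.0362) in S354F cells. The R448Q call alone stayed in every leave-one-out fit, and Ints8 lies opposite Ccne2. Ccne1 had 4913 and 5355 normalized counts in R377H cells, against 3548 and 3977 in WT ID cells, a rise of 0.45 on the log2 scale (SE 0.087, adjusted p = 0.000689), and passed in no other group.

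Cdc25a encodes the phosphatase that activates CDK2. Its normalized counts were 3909 and 4357 in R448Q, 4138 and 4369.7 in H455R, 4661 and 4999 in K365T and 4698 and 5364 in R342C cells, against 6144 and 5960.0 in WT ID cells, with all 8 mutant libraries below both of WT ID. It fell by 0.55 (SE 0.083, adjusted p = 1.81e-05) in R448Q, 0.51 (SE 0.083, adjusted p = 0.000168) in H455R, 0.33 (SE 0.083, adjusted p = 0.00514) in K365T and 0.27 (SE 0.083, adjusted p = 0.0243) in R342C cells, and rose in none. The 100 genes around it had a median shift of -0.352 in R448Q cells. E2f1, the activator of S phase genes, fell by 0.38 (SE 0.07, adjusted p = 0.0005) in H455R cells and by 0.21 to 0.23 in WT IAA, R339Q and K365T cells, and rose by 0.21 (SE 0.07, adjusted p = 0.0341) in R377H cells. Cdk2 fell in WT IAA and R339Q cells by 0.19 and 0.18, and both calls were lost in all 4 leave-one-out fits.

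Most replication genes fell in R342C and H455R cells. In R342C cells 10 of 13 fell and none rose, with a median of -0.31 against -0.03 over all genes tested. In H455R cells 10 of 13 fell and none rose, with a median of -0.28 against -0.01 over all genes. Scaled to TPM, 8 of 13 fell in R342C cells and 10 of 13 in H455R cells. Of the 10 decreases in each line, 6 stayed in every leave-one-out fit in R342C cells and 4 in H455R cells. R339Q cells had 5 lower and none higher, where 9.7% of all genes tested were lower. Most of these 5 decreases were lost without some library. WT IAA, S354F and R377C cells had no call among the 13.

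Mcm4 and Mcm5, helicase subunits, fell in R342C cells by 0.36 (SE 0.072, adjusted p = 0.00159) and 0.39 (SE 0.074, adjusted p = 0.00102). Gins1 (a subunit of the GINS complex) fell by 0.40 (SE 0.10, adjusted p = 0.0089) in R342C and 0.40 (SE 0.10, adjusted p = 0.00905) in H455R cells. Mcm4 also fell in H455R cells, by 0.38 (SE 0.072, adjusted p = 0.00069). Pcna, the sliding clamp, fell in R342C cells by 0.32 (SE 0.068, adjusted p = 0.00233), and rose in R448Q cells. Rrm1 and Rrm2 encode the ribonucleotide reductase that makes deoxynucleotides, and in H455R cells fell by 0.25 (SE 0.07, adjusted p = 0.0138) and 0.28 (SE 0.077, adjusted p = 0.012). In H455R cells the genes nearest to Rrm1 and Rrm2 had median shifts of 0.029 and -0.268, the latter close to the change of Rrm2. The part of this shift in the Rrm2 decrease was not tested. Rrm1 and Rrm2 both rose in R448Q cells, Rrm1 also in K365T and Rrm2 in Q418R cells. The genes nearest to Rrm2 had median shifts of -0.251 in R448Q and 0.153 in Q418R cells. Cdt1, the loading factor, fell in R339Q cells, by 0.38 (SE 0.082, adjusted p = 0.00237), and passed in no other group. Mcm2 and Mcm7 each fell in 3 groups and rose in none. Mcm3 fell in 3 and rose in 2 (K365T and R448Q), and Cdc45 fell in 4 and rose in 1 (R377H). The genes nearest to Mcm3 had median shifts of 0.34 in K365T and 0.627 in R448Q cells. Those nearest to Cdc45 had a median shift of -0.207 in K365T cells, where Cdc45 fell, and measured against them it stood at 0.0204. The part of these shifts in the changes of Mcm3 and Cdc45 was not tested.

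**Figure D3:**
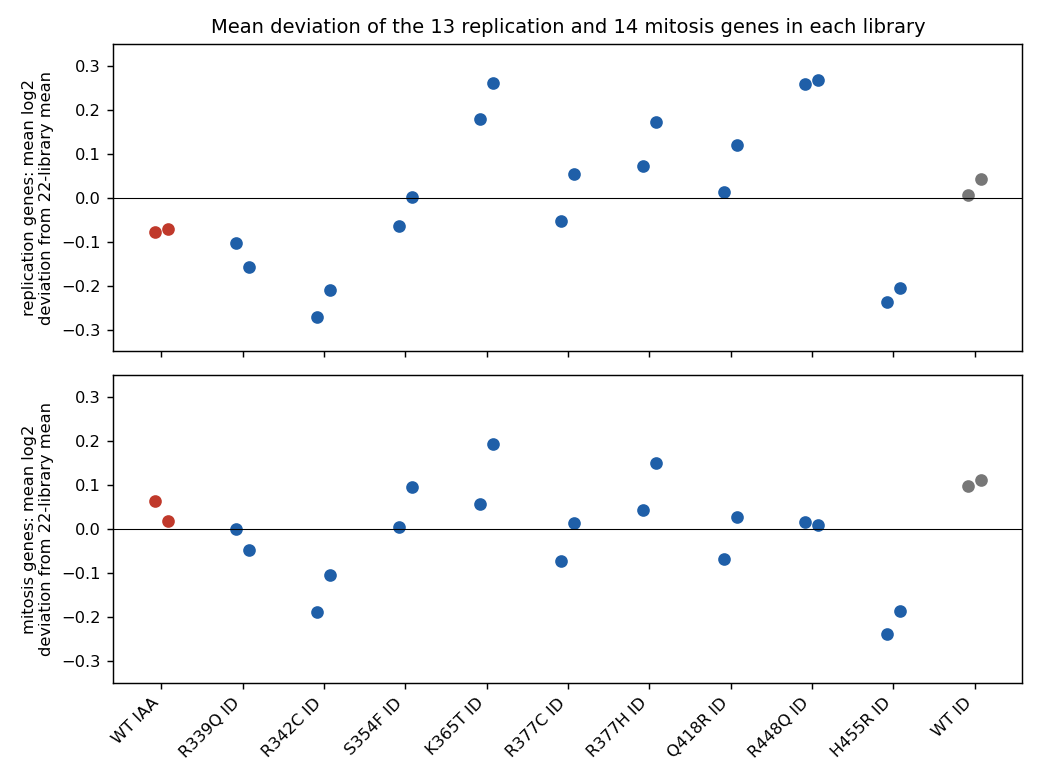
Mean log2 deviation from the 22-library mean over the 13 replication genes (top) and the 14 mitosis genes (bottom) in each library (points), for WT IAA (red), the mutant lines (blue) and WT ID (grey). The libraries of R342C and H455R lie lowest in both panels. Those of R339Q, WT IAA and, narrowly, S354F also lie below every WT ID library in both panels. K365T, R377H and R448Q lie above WT ID in the top panel.

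R448Q cells had 7 of 13 replication genes higher and 1 lower, or 4 and 3 on TPM. K365T cells had 5 higher and 1 lower, or 4 and 2 on TPM. Cdc6, which loads the MCM helicase, had 3151 and 3128 normalized counts in R448Q, 3035 and 3062 in R377H, 2777 and 2753 in K365T and 1221 and 1473 in H455R cells, against 1673 and 1745 in WT ID cells. It rose by 0.88 on the log2 scale (SE 0.081, adjusted p = 4.58e-08) in R448Q, 0.84 (SE 0.081, adjusted p = 3.21e-07) in R377H and 0.69 (SE 0.081, adjusted p = 3.11e-06) in K365T cells, and fell by 0.35 (SE 0.081, adjusted p = 0.00374) in H455R cells. Mcm6 had 18766 and 19357 in R448Q, 18361 and 19242 in K365T and 14678 and 15220.0 in Q418R cells, then 9655 and 10058 in R342C, 10279.7 and 10494 in H455R and 11021 and 10419 in R339Q cells, against 11769 and 12821 in WT ID cells. The first 3 of these lines lay above WT ID and the other 3 below it. Mcm6 rose by 0.63 (SE 0.07, adjusted p = 4.03e-07) in R448Q, 0.61 (SE 0.07, adjusted p = 2.24e-06) in K365T and 0.28 (SE 0.07, adjusted p = 0.00517) in Q418R cells. It fell by 0.32 (SE 0.07, adjusted p = 0.00309) in R342C, 0.24 (SE 0.07, adjusted p = 0.016) in H455R and 0.20 (SE 0.07, adjusted p = 0.0497) in R339Q cells. The genes nearest to Mcm6 had median shifts of 0.416 in R448Q, 0.251 in K365T and 0.241 in Q418R cells. In R342C, H455R and R339Q cells these shifts were 0.015, 0.053 and 0.086. Mcm5 had 20104 and 21244 in R448Q, 17087 and 17264 in K365T and 10296 and 9687 in R342C cells, against 12937 and 13292 in WT ID cells, with changes of 0.66 (SE 0.074, adjusted p = 5.59e-07) in R448Q, 0.39 (SE 0.074, adjusted p = 0.000481) in K365T and -0.39 (SE 0.074, adjusted p = 0.00102) in R342C cells.

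The shifted chromosomes held many of these increases. In K365T cells 6 of the 8 genes of all roles on chromosomes 1, 8 and 11 rose and none fell, with a median of 0.41, and of the other 29 genes 3 rose and 6 fell, with a median of -0.01. In R448Q cells 4 of the 5 genes on chromosomes 1, 3 and 8 rose, with a median of 0.57, and of the other 32 genes 9 rose and 8 fell. Among those 9, Cdc6, Top2a and Birc5 lie on chromosome 11, where their 100 nearest genes had median shifts of 0.336, 0.343 and 0.211. For the rest of the 9, these shifts ran from -0.403 (Ccnd1) to 0.08 (Ccne2). In R377H cells all 4 genes on chromosome 11 (Cdc6, Aurkb, Top2a and Birc5) rose, with a median of 0.40. Measured against its 100 nearest genes, Cdc6 stood at 0.314 there, and the other 3 turned sign, Aurkb to -0.0892, Birc5 to -0.262 and Top2a to -0.0533. In Q418R cells Mcm2 and Foxm1, both on chromosome 6, fell by 0.37 (SE 0.07, adjusted p = 0.000638) and 0.65 (SE 0.063, adjusted p = 3.85e-07), beside a median of -0.560 and -0.515 over their 100 nearest genes, and measured against them Mcm2 turned to 0.193. With each gene measured against those neighbours, an alternative added after the data were seen, replication genes had 8 higher and 2 lower in R448Q cells and 5 higher and none lower in K365T cells. In H455R cells Mcm5 and Cdt1, on shifted chromosome 8, were not called, with changes of 0.085 and 0.029 beside neighbours at 0.464 and 0.565, and measured against its neighbours Mcm5 stood at -0.379. Whether the chromosome shifts account for any one change was not tested.

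**Figure D4:**
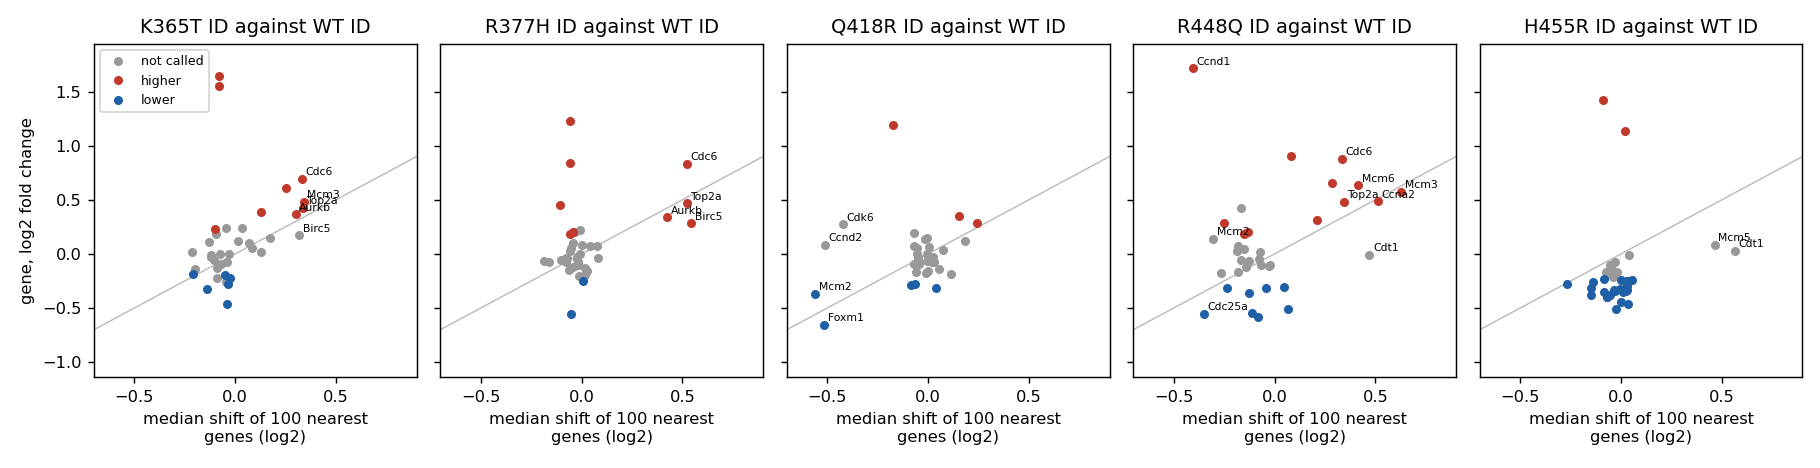
Log2 fold change of each of the 37 genes against WT ID (y axis) over the median log2 shift of its 100 nearest tested genes (x axis) in 5 lines, with called genes in red (higher) and blue (lower), not called in grey, and a grey line where both are equal. Cdc6, Top2a, Aurkb and Birc5 stand to the right in R377H cells, Mcm2 and Foxm1 to the left in Q418R cells, and Ccnd1 far above the line in every panel.

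Promoter letters differed between replication and mitosis genes. RefSeq promoters (GRCm38.p6, the assembly that mm10 names, 250 bases before to 50 after the start) were found for 29 of the 37 genes, with 31 windows, and were searched on both strands. The E2F motif (TTTGGCGC, TTTCCCGC, TTTGCCGC or TTTCGCGC) stood in 6 of 11 replication promoters, 2 of 4 G1/S promoters and 1 of 11 mitosis promoters, against 2.6% of 27025 genes with a promoter. The cell cycle homology region (CHR, TTTGAA or TTCGAA, bound by the MuvB complexes that control G2 genes) stood in 9 of 11 mitosis and 3 of 11 replication promoters, against 21.7% of genes. The CCAAT box (CCAAT) stood in 10 of 11 mitosis and 9 of 11 replication promoters, against 41.1%. The CTCF core GGNGGCAG stood in 2 of 11 replication and 0 of 11 mitosis promoters, against 14.1%.
The 150 bases before the start of 4 genes are shown, since each carries the motif typical of its group, with matches to the E2F, CHR and CCAAT motifs in capitals. Mcm6 (chr1:128359706-128359855, minus strand) and Cdc25a (chr9:109875429-109875578, plus strand) hold E2F letters, and in Mcm6 a pair of them overlaps. Cdc20 (chr4:118437344-118437493, minus strand) and Top2a (chr11:99024190-99024339, minus strand) hold CHR letters, and TTCGAA reads the same on both strands.
Mcm6: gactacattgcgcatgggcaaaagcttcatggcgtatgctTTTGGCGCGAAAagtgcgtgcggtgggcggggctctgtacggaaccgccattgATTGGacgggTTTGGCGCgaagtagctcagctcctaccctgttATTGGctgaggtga
Cdc25a: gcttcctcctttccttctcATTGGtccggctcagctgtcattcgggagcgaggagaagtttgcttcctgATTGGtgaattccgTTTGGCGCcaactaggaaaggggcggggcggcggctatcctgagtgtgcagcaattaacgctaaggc
Cdc20: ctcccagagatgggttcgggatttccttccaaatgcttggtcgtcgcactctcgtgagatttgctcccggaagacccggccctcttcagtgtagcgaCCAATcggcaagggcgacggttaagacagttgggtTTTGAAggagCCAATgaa
Top2a: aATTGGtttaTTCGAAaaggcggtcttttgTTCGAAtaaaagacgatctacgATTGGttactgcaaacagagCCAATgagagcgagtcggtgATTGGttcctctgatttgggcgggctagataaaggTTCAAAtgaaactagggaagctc
Mcm6 rose in 3 lines and fell in 3, and Cdc25a, with the same motif letters, fell in 4 and rose in none. The genes nearest to Mcm6 had median shifts of 0.416 in R448Q, 0.251 in K365T and 0.241 in Q418R cells, where Mcm6 rose. Where Mcm6 fell, these shifts were 0.015 in R342C, 0.053 in H455R and 0.086 in R339Q cells. For Cdc25a they were -0.352 in R448Q, -0.139 in K365T, -0.027 in H455R and -0.009 in R342C cells, where it fell. Cdc20 fell in 3 and Top2a rose in 3 and fell in 1. The genes nearest to Top2a had median shifts of 0.522 in R377H, 0.336 in K365T and 0.343 in R448Q cells, where Top2a rose. In H455R cells, where Top2a fell, this shift was 0.03. The part of these shifts in the changes of the 4 genes was not tested.

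Mitosis genes fell together in H455R cells, where 13 of 14 were lower and none higher, with a median of -0.33. All but Cdk1 (-0.17) passed, and 5 of the 13 stayed in every leave-one-out fit. In R342C cells 8 of 14 fell and none rose, with a median of -0.25, and 3 of the 8 stayed. Scaled to TPM, 11 fell in H455R cells and 3 in R342C cells. Plk1, the Polo kinase, and Cdk1, the mitotic kinase, fell by 0.46 (SE 0.092, adjusted p = 0.00153) and 0.34 (SE 0.069, adjusted p = 0.00173) in R342C cells, and Cdk1 rose in WT IAA cells.

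Cdc20 activates the anaphase-promoting complex. It had 5507 and 5853 normalized counts in R448Q, 5775 and 6365 in H455R and 6591 and 5846 in R342C cells, against 8662 and 7888 in WT ID cells, with no overlap. It fell by 0.54 (SE 0.10, adjusted p = 0.000225) in R448Q, 0.45 (SE 0.10, adjusted p = 0.00344) in H455R and 0.41 (SE 0.10, adjusted p = 0.00712) in R342C cells. Ccnb2 (cyclin B2) had 3473 and 3377 in R448Q, 3523 and 3946 in H455R, 4142 and 3897 in R339Q, 4137 and 4068 in WT IAA and 3991 and 4281 in Q418R cells, against 5058 and 5213 in WT ID cells. It fell in all 5, by 0.58 (SE 0.097, adjusted p = 5.53e-05) in R448Q, 0.46 (SE 0.097, adjusted p = 0.0017) in H455R and 0.31 to 0.35 in the other 3. Ccnb1 (cyclin B1) also fell in 5 groups and rose in none. Foxm1, the transcription factor of G2 genes, had 5119 and 5151 in Q418R, 6727 and 7114 in WT IAA and 6688 and 7063 in H455R cells, against 7795 and 8362 in WT ID cells. It fell by 0.65 on the log2 scale (SE 0.063, adjusted p = 3.85e-07) in Q418R cells, on the shifted chromosome 6, and by 0.23 (SE 0.063, adjusted p = 0.0107) in H455R and 0.22 (SE 0.063, adjusted p = 0.0161) in WT IAA cells.

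In R448Q cells 5 of the 14 mitosis genes were lower and 3 higher, where 23.1% of all genes tested were lower and 22.8% higher. Cdc20, Ccnb2, Ccnb1, Aurka and Aurkb (the Aurora kinases) fell, and Ccna2 (cyclin A2), Top2a (topoisomerase II) and Birc5 (survivin) rose by 0.49 (SE 0.087, adjusted p = 0.000117), 0.48 (SE 0.071, adjusted p = 1.42e-05) and 0.31 (SE 0.078, adjusted p = 0.00266). Ccna2 lies on chromosome 3, where the median gene was shifted by 0.449, and measured against its 100 nearest genes it stood at -0.0246. The 100 genes nearest to Top2a, Birc5 and Aurkb had median shifts of 0.343, 0.211 and -0.238. Those nearest to Cdc20, Ccnb2, Ccnb1 and Aurka stood between -0.11 and 0.046. In other lines, Ccna2 fell in R339Q, R342C, R377H and H455R cells. On TPM, where the median gene of R448Q cells stood 0.17 lower than in WT ID cells, 9 mitosis genes fell and 2 rose, and over all 37 genes 16 fell and 8 rose, against 8 and 13 on normalized counts. K365T cells changed likewise to 10 lower and 8 higher on TPM, and R377H cells to 6 lower and 5 higher. Bub1, a spindle checkpoint kinase, fell by 0.38 (SE 0.067, adjusted p = 0.000539) in WT IAA, 0.34 (SE 0.067, adjusted p = 0.00125) in R339Q and 0.32 (SE 0.067, adjusted p = 0.00164) in H455R cells, calls that stayed in every leave-one-out fit. Bub1b, its partner BUBR1, fell in R342C and H455R cells, and Mki67, the proliferation antigen Ki-67, fell in R342C, K365T and H455R cells, by 0.24 to 0.28 in each of these.

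Markers of other cells differed from WT ID both in lines with these decreases and in lines without them. Summed trophectoderm markers were 141 and 128 TPM in H455R, 96.8 and 92.4 TPM in R339Q, 93.6 and 92.7 TPM in WT IAA and 48.7 and 54.8 TPM in R342C cells, against 68.3 and 55.2 TPM in WT ID cells. All 5 tested of the 6 rose in H455R cells, while Elf5, a defining marker, was at 0 and 0.022 TPM. Summed primitive endoderm markers were 38.3 and 36.0 TPM in R339Q, 33.8 and 32.1 TPM in R342C and 26.8 and 28.7 TPM in H455R cells, against 16.7 and 14.2 TPM in WT ID cells. They were 27.7 and 31.1 TPM in S354F and 24.8 and 24.6 TPM in R377C cells, lines with no replication or mitosis gene called. Not every gene of this list moved with the sum. In R342C cells Lamb1 stood at 12.5 and 13.4 TPM and Gata4 at 14.7 and 10.9 TPM. In WT ID cells Lamb1 stood at 4.7 and 5.2 TPM and Gata4 at 5.0 and 4.6 TPM. Sox17 and Dab2 overlapped WT ID in R342C cells, as did Sox17, Pdgfra and Dab2 in S354F cells. Summed fibroblast markers were 6.23 and 9.89 TPM in H455R cells, against 3.22 and 2.31 TPM in WT ID cells, and both tested of the 5 also rose in WT IAA, R339Q, S354F, K365T, R377C and R377H cells. Ctcf RNA was 261 and 270.4 TPM in H455R and 278 and 284 TPM in R448Q cells, against 160 and 155 TPM in WT ID cells, and no library of the other treated groups was above 185 TPM. The part of these markers and of the Ctcf level in the changes of cell cycle genes was not tested.

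Lines with substitutions close together in the protein were compared directly. R377C and R377H change the same residue, and 9 of the 37 genes were lower in R377C than in R377H cells and none higher, where 11.1% of all genes were lower and 7.88% higher (19% called in all). Ccnd1 had 1255 and 1233 normalized counts in R377C cells, against 1704 and 1945 in R377H cells, a difference of -0.55 on the log2 scale (SE 0.095, adjusted p = 0.000334). Ccne1 had 3669.7 and 3829 in R377C cells, against 4913 and 5355 in R377H cells, a difference of -0.45 on the log2 scale (SE 0.087, adjusted p = 0.000937). Cdc6, Aurkb, Top2a and Birc5, all on chromosome 11, were 4 of the 9. The split was 2 higher and 7 lower on TPM, 3 and 8 after quantile normalization and 1 and 5 when centred on the chromosome. The other 3 comparisons were added after the data were seen. K365T against S354F had 14 higher and 3 lower (all genes 16% and 12.2%, together 28.2%), with differences of 1.39 (SE 0.095, adjusted p = 1.82e-08) for Ccnd1, 0.66 (SE 0.12, adjusted p = 0.000572) for Ccne2 and 0.53 (SE 0.074, adjusted p = 3.5e-05) for Mcm5. Centred on the chromosome, 11 were higher and none lower. H455R against R448Q had 2 higher and 22 lower (all genes 22.7% and 21.9%, together 44.6%), or 6 and 14 on TPM, with differences of -1.23 (SE 0.081, adjusted p = 8.11e-10) for Cdc6 and -0.56 (SE 0.077, adjusted p = 6.07e-06) for Rrm2. R342C against R339Q had 1 higher and 6 lower (all genes 10.9% and 15.8%, together 26.7%), but 3 and 1 on TPM and 5 and 2 after quantile normalization, so no direction held over the scalings. On TPM the median of all genes stood at 0.11 in R377C against R377H, -0.10 in K365T against S354F and 0.19 in H455R against R448Q. On normalized counts these medians were 0.008, -0.01 and 0.001.

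Against untreated cells the replication genes were lower in both treated wild-type groups. The untreated libraries come from a separately scaled table, so TPM values are set side by side with no test, and a gene is called apart where the means differ at least 1.5-fold and the libraries do not overlap. WT ID had 7 of the 37 genes apart (27.7% of all genes tested), Ccnd2 above and Ccnd3, Cdk6, Ccne1, Mcm4, Cdc6 and Rrm2 below. WT IAA had 12 apart (32.1% of all genes), 2 above and 10 below. Of all genes tested, 4181 were apart above and 1007 below in WT ID, and 4589 above and 1425 below in WT IAA. All 13 replication genes had a lower mean in WT ID and in WT IAA than in untreated cells, with medians of -0.46 and -0.60 (log2 ratio of mean TPM + 0.1). Mitosis genes had medians of -0.01 and -0.03, while the median over all genes was 0.19 in both. Rrm2 averaged 183 ± 6.67 TPM in WT ID and 209 ± 6.09 TPM in WT IAA, against 323 ± 13.3 TPM in untreated cells (SD, n = 2 each). Cdc6 averaged 24.5 ± 0.525 TPM in WT ID and 21.8 ± 0.118 TPM in WT IAA, against 39.2 ± 2.59 TPM in untreated cells.

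Ccnd2 averaged 0.627 ± 0.0559 TPM in WT ID and 0.966 ± 0.0396 TPM in WT IAA, against 0.0805 ± 0.00778 TPM in untreated cells, and was apart in both. Ccnd3 averaged 65.7 ± 3.50 TPM in WT ID and 52.5 ± 1.72 TPM in WT IAA, against 105 ± 10.1 TPM in untreated cells. Ccnd1 averaged 12.3 ± 0.209 TPM in WT ID and 12.6 ± 0.713 TPM in WT IAA, against 14.2 ± 1.42 TPM in untreated cells, and was not apart. WT ID and WT IAA are set against the same 2 untreated libraries. With recovered reads of all libraries scaled together, 13 genes were apart in WT ID (1 above, 12 below) and 16 in WT IAA (1 above, 15 below). The share of all genes apart under this scaling is not given here, so these counts cannot be set against it.

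**Figure D5:**
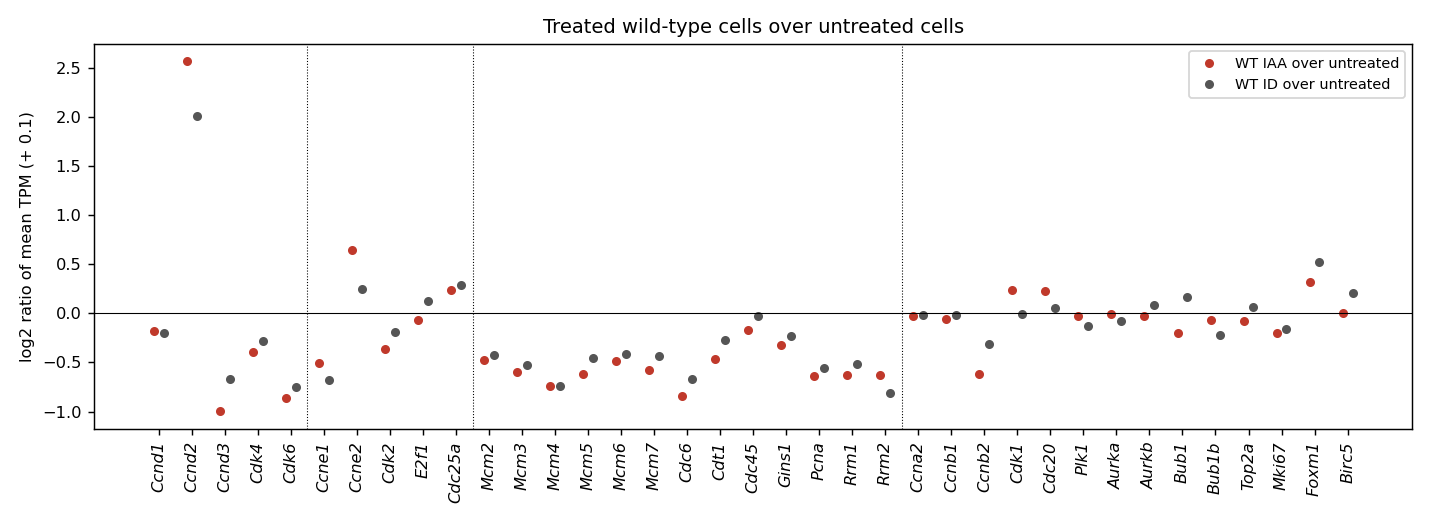
Log2 ratio of mean TPM (+ 0.1) of WT IAA (red) and WT ID (grey) over untreated cells for each of the 37 genes, with dotted lines between the role groups. The 13 replication genes all lie below 0, the mitosis genes lie around 0, and Ccnd2 stands highest.

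Other cell cycle genes, 92 in 4 lists, were counted by the same test. In H455R cells 41 of the 92 fell and 10 rose (55.4% called, against 23.1% of all genes), among them 17 of 35 other replication genes and 19 of 30 other mitosis genes lower. In R342C cells 29 fell and 4 rose (35.9%, against 23.3%), with 12 of 35 and 16 of 30 lower. R448Q cells had 30 higher and 23 lower (57.6%, against 45.8%), K365T cells 26 and 6 (34.8%, against 32%), and R339Q cells 7 and 18 (27.2%, against 21.5%). R377H cells had 13 higher and 11 lower, 26.1% of the 92 against 25.1% of all genes, and Q418R cells 12 and 14, 28.3% against 25%. WT IAA cells had 5 and 12, 18.5% against 20.7%, S354F cells 3 and 5, 8.7% against 9.8%, and R377C cells 4 and 7, 12% against 8.09%.

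The CDK inhibitors differed in direction between genes and lines. Cdkn1c, which encodes p57, averaged 77.2 ± 12.3 normalized counts in R448Q and 124 ± 20.9 in R377H cells, against 272 ± 20.5 in WT ID cells (SD, n = 2 each). It fell by 1.81 (adjusted p = 1.13e-07) in R448Q and 1.13 (adjusted p = 8.91e-05) in R377H cells, and rose by 0.59 (adjusted p = 0.0228) in R342C cells. Cdkn2a, which encodes p16 and p19ARF, averaged 446 ± 124 in R448Q and 431 ± 59.1 in K365T cells, against 135 ± 38.3 in WT ID cells. It rose in R448Q, K365T, R377H and H455R cells, by 1.71 (adjusted p = 4.91e-05) in R448Q and 1.03 (adjusted p = 0.0118) in H455R cells, 4 of the 6 lines in which Ccnd1 rose. Cdkn1b, which encodes p27, fell in 7 groups, deepest in Q418R cells with -0.96 (adjusted p = 7.01e-07), and lies on chromosome 6, whose median gene was shifted by -0.462 there. Rb1, the target of the D cyclin kinases, rose in WT IAA by 0.84 (adjusted p = 3.63e-05) and in R339Q, R342C, S354F and H455R cells by 0.36 to 0.83.

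Among the factors that act with E2F, Tfdp1, the E2F partner DP1, averaged 7904 ± 225 normalized counts in R448Q and 5132 ± 185 in K365T cells, against 3128 ± 99.7 in WT ID cells. It rose by 1.34 (adjusted p = 1.21e-10) in R448Q, 0.71 (adjusted p = 8.68e-07) in K365T, and 0.44 and 0.45 in R377C and Q418R cells. Mybl2 (B-MYB) fell in WT IAA and H455R and rose in K365T, R377H and R448Q cells, E2f3 rose in 6 lines, and Lin9, of the MuvB complex, rose in K365T and R448Q cells. Of the other replication genes, Lig1 (DNA ligase I) fell by 0.79 (adjusted p = 1.82e-07) in R342C, 0.71 (adjusted p = 2.43e-07) in R339Q, 0.56 (adjusted p = 1.32e-05) in S354F and 0.39 (adjusted p = 0.000716) in R377C cells. Prim2 (a primase subunit), Orc2 and Orc6 (origin recognition) rose in K365T and R448Q cells, by 0.834, 0.587 and 0.755 in R448Q cells. Orc2 fell in R339Q, R342C and H455R cells, Prim2 also rose in R339Q, R377H and Q418R cells, and Orc6 in R377C, Q418R and H455R cells. Prim2, Orc2 and Lin9 lie on chromosome 1 and Orc6 and Tfdp1 on chromosome 8. The median genes of these chromosomes were shifted by 0.473 and 0.450 in R448Q and by 0.269 and 0.203 in K365T cells. Chromosome 1 was also shifted by 0.244 in Q418R cells, where Prim2 rose by 0.775. Chromosome 8 was shifted by 0.474 in H455R cells, where Orc6 rose by 0.453. The part of these shifts in the increases was not tested. Of the other mitosis genes, Pttg1 (securin) fell by 1.78 (adjusted p = 6.72e-07) in H455R cells and rose by 0.65 (adjusted p = 0.00921) in R377H cells, on the shifted chromosome 11. It also fell in R339Q, R342C, S354F, R377C and R448Q cells. Cdc25b, a CDK1 phosphatase, fell in 6 lines, deepest in Q418R cells with -0.99 (adjusted p = 3.94e-07). Mad2l1 (spindle checkpoint) fell by 0.78 (adjusted p = 1.35e-06) in Q418R cells, where its chromosome 6 was shifted, also fell in R342C, R377H and H455R cells, and rose by 0.27 (adjusted p = 0.0108) in R448Q cells. Ect2 (cytokinesis) rose by 0.53 (adjusted p = 2.18e-06) in R448Q cells, on the shifted chromosome 3, rose in K365T cells, and fell in R339Q and R342C cells.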

How the data were processed

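RNA of 24 libraries in 12 groups was measured by stranded total RNA sequencing after depletion of ribosomal RNA, in pairs of 150 bp reads, per the labels' protocols. Trim Galore, STAR, DESeq2 and mm10 are named, with no versions, per the submitters' processing notes, while the read counter and how it treated strand are not named. Normalized counts are a signal, deposited in that form, that the authors made by dividing gene counts by 1 size factor per library, with 22 treated libraries in one table and the 2 untreated ones in another. The deposited TPM values are scaled by the authors for gene length and library. From the normalized counts 27761749 to 77141117 reads per library were recovered, with 100% of values whole within 0.001. Columns of libraries outside the series numbered 0.

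Differences were tested with limma 3.58.1 (R 4.3.3) with a trend on log2(normalized count + 1) over all 22 libraries, for 18713 genes with a mean of at least 10, with Benjamini-Hochberg adjustment per comparison and a threshold of 0.05. Fold changes on this scale understate those of low genes. The script was tested on simulated data. Alternatives used edgeR 4.0.16 and DESeq2 1.42.0 on the recovered reads, TPM + 0.1, quantile normalization, a pseudocount of 5, no filter, centring on chromosomes or on the 100 nearest genes, a replicate block, and leaving out each library.

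Values in every library are given for the 3 D cyclins and for the 3 genes per other role with the largest called change, and of 92 other cell cycle genes the 4 per list with the lowest adjusted p of the F test are named. Other members were named from their calls. The members, lists and rules were chosen with earlier results of these data known. Sequences are from RefSeq. Gene coordinates are from GENCODE M21 on mm10.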

Additional observations from a re-analysis of the deposited data

Results flagged for a closer look

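The cells with R377C and R377H, 2 changes of the same residue, differed from each other in 9 genes, all lower in R377C cells. The test was a direct limma contrast (R377C minus R377H, log2, adjusted p under 0.05), so their changes against WT ID differed as well. Of all genes tested, 19% were called in this contrast, 11.1% lower and 7.88% higher. The 9 were all 4 genes on chromosome 11 and 5 of the other 33, so the count as such sets these genes apart little. The differences were -0.549 for Ccnd1, -0.452 for Ccne1, -0.29 for E2f1, -0.639 for Cdc6, -0.324 for Cdc45, -0.374 for Gins1, -0.468 for Aurkb, -0.531 for Top2a and -0.257 for Birc5. Cdc6, Aurkb, Top2a and Birc5 lie on chromosome 11, whose median gene was shifted by 0.543 in R377H cells against WT ID. Its part in these 4 differences was not tested, and Aurkb and Birc5 turned sign when centred on the chromosome. Each substitution was carried by 1 line.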

How the results depend on the processing

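Of the 130 called pairs of a gene and a group against WT ID, 129 stayed called with a pseudocount of 5, 106 with no filter, 115 after quantile normalization, 99 on TPM, 127 with edgeR and 130 with DESeq2. Over all genes, edgeR on the recovered reads called 1618 to 8738 genes per group, against 1514 to 8578 with limma. Centring on chromosomes kept 107 and centring on the 100 nearest genes kept 90. The deviations of same-numbered libraries correlated between groups at -0.248 to 0.382, and over 0.1 in 10 of 55 pairs of groups. The replicate block kept all 130 calls, with 9 in WT IAA against 8 without the block. With no filter the count of genes called was 3 in WT IAA, 1 in S354F, 2 in R342C against R339Q and 11 in K365T against S354F. On TPM it was 5 in WT IAA, 12 in R342C, 1 in S354F and 4 in R342C against R339Q. Quantile normalization gave 13 in R342C, and DESeq2 gave 13 in R342C against R339Q. Centring on chromosomes gave 5 in Q418R and 11 in K365T against S354F, and centring on neighbours gave 5 in Q418R, 13 in R342C against R339Q and 9 in K365T against S354F. A fold limit of 2 left 1 gene apart from untreated cells in WT ID and 1 in WT IAA. Recovered reads scaled together gave 13 in WT ID, with no share of all genes given for either setting. The cause was not tested.

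Only 65 of the 130 calls stayed in every leave-one-out fit, in which the lone library is taken to vary like the other groups. Counts ranged from 1 to 2 in WT IAA and 4 to 5 in R339Q whichever library was left out, 11 to 22 in R342C (11 without WT ID replicate 2), 1 to 2 in S354F (1 without either WT ID library), 9 to 14 in K365T (9 without WT ID replicate 2), 6 to 7 in R377H whichever library was left out, 4 to 8 in Q418R (4 without WT ID replicate 1, 5 without Q418R replicate 1) and 15 to 22 in H455R (15 without H455R replicate 1, 17 without WT ID replicate 2). They ranged from 1 to 9 in R342C against R339Q (1 without R339Q replicate 1, 4 without R339Q replicate 2 or R342C replicate 1), 9 to 16 in K365T against S354F (9 without K365T replicate 2, 11 without S354F replicate 2) and 7 to 13 in WT IAA over untreated cells (7 without untreated replicate 1).

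Signs turned in 18 cases, with these log2 values. Centred on chromosomes, Aurkb was -0.000396 in K365T, -0.197 in R377H and 0.0306 in R377C against R377H, and Birc5 was -0.251 in R377H and 0.242 in R377C against R377H. Top2a was -0.0652 in R377H, Mcm2 0.107 in Q418R and Mcm5 -0.376 in H455R. Centred on neighbours, Aurkb was -0.0892, Birc5 -0.262 and Top2a -0.0533 in R377H, and Birc5 was 0.21 in R377C against R377H. Ccna2 was -0.0246 and Mcm3 -0.0549 in R448Q, Cdc45 0.0204 in K365T, Mcm2 0.193 in Q418R and Mcm5 -0.379 in H455R. On TPM, Cdk2 was 0.042 in H455R against R448Q.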
